A study of Homo sapiens with 9 samples.

Results

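The 46 genes described here act in the G2 phase and in mitosis of the cell cycle. They were chosen by gene symbol, with earlier results of these data known. Each was represented by 1 probe set, the one with the highest mean over all 9 arrays among probe sets annotated with that single symbol. All 46 were on the array and all passed the filter on dim probe sets, among 13697 genes with a single symbol and 20068 features tested in all. RNA of U87, an established cell line from a human glioma, was measured on 9 Affymetrix arrays, in 3 groups of 3 biological replicates. One group received the miRNA duplex miR-376a*G, another miR-376a*A and the third a control miRNA, each at 50 nM with the lipid reagent Lipofectamine RNAiMAX and harvested after 24 h. The A in the name stands for the unedited base, and the G for the base read once RNA editing has turned that adenosine into inosine, as known from published work. All groups therefore carry a transfected duplex, none is untransfected, and the results are those of 1 cell line at 1 dose and 1 time.

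As background, cells that enter mitosis build up cyclin A and cyclin B, which activate the kinase CDK1, and the kinases PLK1, Aurora A and Aurora B then drive spindle assembly and chromosome alignment. Kinetochores link the chromosomes to spindle microtubules, the spindle checkpoint delays anaphase until all are attached, and the ubiquitin ligase APC/C with CDC20 then triggers separation by destroying securin and the cyclins. Transcripts of most of these genes are low in G1 and high in G2 and M, through repressor and activator complexes that contact CHR elements and CCAAT boxes in their promoters. A mean signal from a culture cannot tell a larger share of cells in G2 and M from more transcript in each such cell.

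The study's duplexes are named after the star strand of miR-376a, which RefSeq lists as hsa-miR-376a-5p at chr14:101040788-101040809 on the plus strand of GRCh38.p14. The listed genomic form is shown for orientation, with its seed (bases 2 to 8) in capitals. The sequences of the duplexes themselves were not analysed here.
hsa-miR-376a-5p: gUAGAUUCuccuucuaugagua

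The arrays shared a scale, with median signals between 18.0 and 20.4. Across features, which are not independent replicates, arrays of a group correlated with r between 0.9865 and 0.9952, and the lowest value was that of control replicates 1 and 2. Deviations from the group mean had an SD of 0.102 to 0.114 (log2) on the 6 miR-376a* arrays, and of 0.164, 0.145 and 0.113 on control replicates 1, 2 and 3. Of 8 marker genes of leukocytes, endothelium and epithelium, 5 lay below the filter, and the summed signal of all 8 was 81.8 to 97.1 with miR-376a*G, 141.1 to 146.1 with miR-376a*A and 101.4 to 105.5 in the control. PECAM1 made up most of that gap, at 43.6 ± 2.0 with miR-376a*G, 82.7 ± 4.2 with miR-376a*A and 44.3 ± 3.1 in the control (SD, n = 3 each). The dim T-cell marker CD3E, at 8.4, 17.4 and 18.8 in the same order, was lower with miR-376a*G, by -0.52 (log2) against the control and -0.46 against miR-376a*A. Of 7 astroglial markers 4 lay below the filter (GFAP at 1.1 to 1.8, S100B at 1.0 to 1.4, AQP4 and SLC1A2), OLIG2 and SOX2 were dim (18.3 to 22.7) and passed in no comparison, and SLC1A3 averaged 144.1 with miR-376a*G, 180.3 with miR-376a*A and 217.0 in the control. Against the control SLC1A3 was lower with miR-376a*G (-0.53, limma adjusted p = 0.00672), and the summed signal of the list was 194.3 to 231.7 with miR-376a*G, 232.1 to 259.0 with miR-376a*A and 233.1 to 318.0 in the control. Of 7 mesenchymal and glioma-line markers 6 were matched and all 6 passed the filter, with a summed signal of 8919.3 to 9343.1 with miR-376a*G, 10512.2 to 11749.6 with miR-376a*A and 9577.0 to 10399.0 in the control. VIM and CD44 (mean signals of 1862.9 to 2303.1) and NES (68.4 to 82.3) passed in no comparison. Against the control CAV1 was lower with miR-376a*G (-0.39, adjusted p = 0.000116) and higher with miR-376a*A (0.20), and FN1 and TNC were higher with miR-376a*A (0.25 and 0.17). All 3 were lower with miR-376a*G than with miR-376a*A, by -0.60 for CAV1, -0.38 for FN1 and -0.20 for TNC. The part of these markers in the results below was not tested.

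With miR-376a*G the mitotic genes were higher than in the control. Of the 46 genes 29 rose (63.0%), 0 fell and 17 did not pass, whereas 11.8% of all features rose and 13.1% fell. Dimmer features passed less often, so the share was also taken over single-symbol genes at least as bright as the dimmest of the 46 genes. Among these 7334 genes 18.4% rose and 19.4% fell. A positive difference, whatever its p, was found for 40 of the 46 genes, against 49.3% of all features and 52.3% of the genes of like brightness. The miR-376a*G arrays lay wholly above the control arrays for 30 genes and wholly below for 1, against 18.6% and 19.7% of all features. The median log2 difference was 0.32, against -0.004 over all features. The rises were modest: 6 genes passed at 1.5-fold or more (of all features, 2.39% passed as higher and 3.19% as lower at that size), led by CCNA2 at 2.50-fold and NEK2 at 1.95-fold. The tests are those of limma across all features, with Benjamini-Hochberg adjusted p under 0.05 as the threshold. Differences are on the log2(signal + 16) scale, which understates the change of dim genes. Each call was repeated under 18 alternatives, of which 9 changed the processing and 9 left out 1 array each.

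With miR-376a*A the same genes split. Of 46 genes 11 rose (23.9%), 8 fell (17.4%) and 27 did not pass, with a median of 0.04. Over all features 10.8% rose and 10.0% fell. Differences were positive for 24 genes and negative for 22, with 57.3% positive over all features and 51.0% among genes of like brightness. At 1.5-fold or more 2 rose and 1 fell (2.1% and 2.25% of all features). The arrays lay wholly above the control for 17 genes and wholly below for 12 (20.7% and 15.9% of all features). Among single-symbol genes at least as bright as the dimmest of the 46, 13.5% rose and 16.5% fell, so the share of mitotic genes that fell lay near that background. The count of falls depended on single arrays, at 3, 5 and 4 without miR-376a*A replicates 1, 2 and 3 and at 10 without control replicate 2. Both comparisons use the same control arrays, so their values are given side by side and their overlap is not read as a result.

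Between the forms, which involves no control array except in the shared estimate of the spread, all 46 differences were positive, that is, higher with miR-376a*G than with miR-376a*A. Over all features 42.9% were positive, and 52.4% among the genes of like brightness. The test passed 22 of the 46 (47.8%) as higher with miR-376a*G and 0 as lower, while 7.9% of all features and 13.5% of those brighter genes passed as higher, and 10.4% and 12.7% as lower. The 3 miR-376a*G arrays lay above the 3 miR-376a*A arrays without overlap for 36 genes and below them for 0 (18.8% and 23.4% of all features). The median difference was 0.23, against -0.03 over all features. The largest were those of ECT2 (1.74-fold) and AURKB (1.57-fold), and 2 genes passed as higher and 0 as lower at 1.5-fold or more (1.73% and 2.65% of all features).

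**Figure D1:**
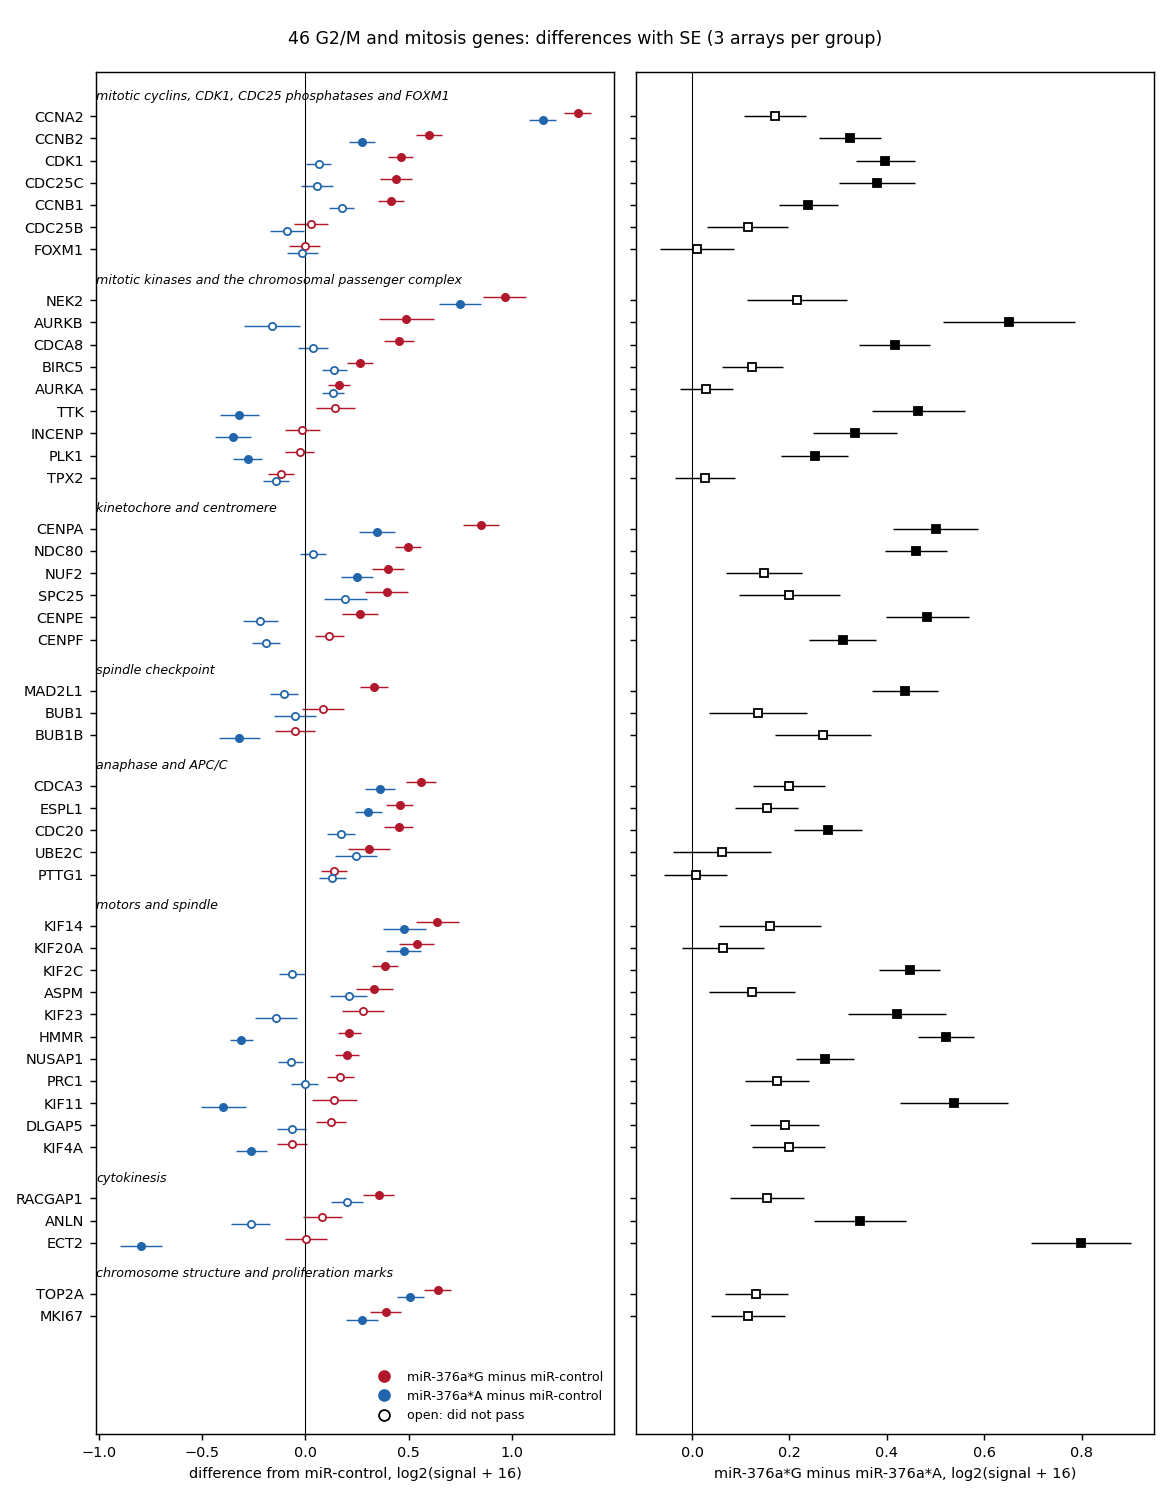
Log2 differences with SE of the 46 genes, grouped by role, with 3 arrays per group: each form against the control on the left (red, miR-376a*G; blue, miR-376a*A) and miR-376a*G minus miR-376a*A on the right, open symbols marking genes that did not pass. Red points lie right of blue ones for all 46 genes, and 29 red, 19 blue and 22 black symbols are filled.

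The arrays of a group behaved alike in this set. Relative to each gene's mean over the 9 arrays, the median deviation of the 46 genes was 0.15, 0.24 and 0.21 (log2) on the miR-376a*G arrays, -0.06 on each of the 3 miR-376a*A arrays, and -0.10, -0.11 and -0.13 on the control arrays. On every miR-376a*G array 44 of the 46 genes lay above their mean. This held for 16 or 17 genes on the miR-376a*A arrays and for 19, 9 and 10 on control replicates 1, 2 and 3. Control replicate 1 spread the genes most, with quartiles of -0.30 and 0.13. The medians over all features lay between -0.02 and 0.03 on the 9 arrays.

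**Figure D2:**
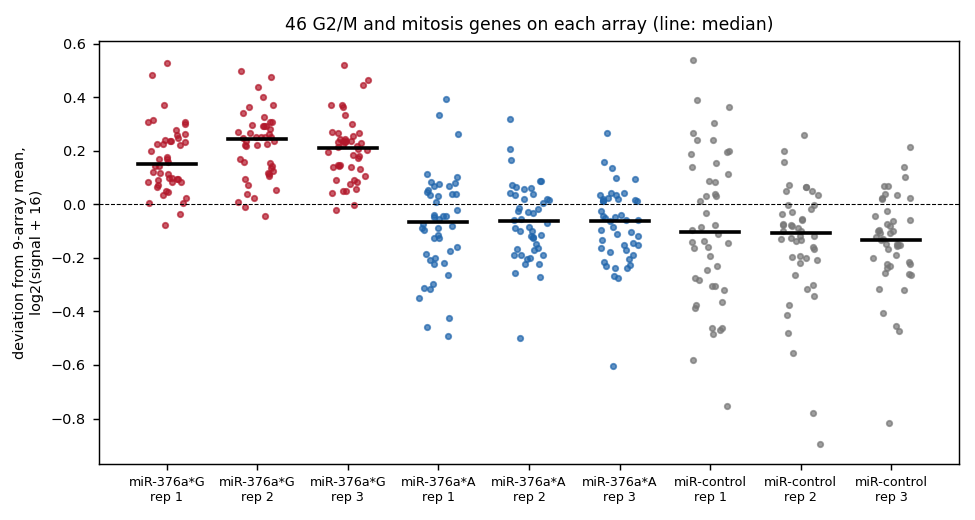
Deviation of each of the 46 genes from its own 9-array mean, on the log2(signal + 16) scale, for each array. Points are genes and black lines are medians; the medians of the 3 miR-376a*G arrays (0.15 to 0.24) lie above 0 and those of the other 6 arrays below it, and the points of control replicate 1 are the most spread.

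Promoter windows in RefSeq (250 bases before to 50 after a gene's start, GRCh38.p14) were found for 39 of the 46 genes. They were searched on both strands for TTTGAA, a form of the CHR element, and for CCAAT. Other forms of the CHR element were not searched. Matches may share bases at their ends. A TTTGAA match lay in a window of 29 of the 39 genes (74.4%), against 18.2% of all 27305 genes in the table. CCAAT was in 33 (84.6%), against 39.7%, and both were in 25 (64.1%), against 8.37%. The 29 genes with TTTGAA had median log2 differences of 0.33, 0.04 and 0.28 for miR-376a*G against control, miR-376a*A against control and miR-376a*G against miR-376a*A, and the 10 without it had 0.40, 0.04 and 0.19. A match, or the lack of one, describes these letters in these windows only, and does not show whether a gene has a CHR element. The windows of 5 genes are shown because the results turn on these genes, with matches to either motif in capitals: CCNA2 (chr4:121823834-121824133, minus strand) and NEK2 (chr1:211675572-211675871, minus strand), with the largest rises, CENPA (chr2:26785806-26786105, plus strand), HMMR (chr5:163460382-163460681, plus strand) and ECT2 (chr3:172750476-172750775, plus strand, 1 of 2 listed starts), which passed as different between the forms.
CCNA2: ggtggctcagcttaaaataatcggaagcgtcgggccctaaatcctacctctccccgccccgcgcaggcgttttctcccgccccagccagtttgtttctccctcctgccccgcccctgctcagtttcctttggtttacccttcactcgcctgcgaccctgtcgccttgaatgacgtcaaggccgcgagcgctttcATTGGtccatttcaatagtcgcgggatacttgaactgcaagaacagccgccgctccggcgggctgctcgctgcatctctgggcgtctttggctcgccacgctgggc
NEK2: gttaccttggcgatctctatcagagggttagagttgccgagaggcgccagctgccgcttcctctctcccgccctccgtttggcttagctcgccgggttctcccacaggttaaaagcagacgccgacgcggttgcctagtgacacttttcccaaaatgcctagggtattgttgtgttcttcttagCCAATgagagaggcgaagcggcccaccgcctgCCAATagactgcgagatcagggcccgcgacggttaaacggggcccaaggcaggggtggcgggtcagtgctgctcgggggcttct
CENPA: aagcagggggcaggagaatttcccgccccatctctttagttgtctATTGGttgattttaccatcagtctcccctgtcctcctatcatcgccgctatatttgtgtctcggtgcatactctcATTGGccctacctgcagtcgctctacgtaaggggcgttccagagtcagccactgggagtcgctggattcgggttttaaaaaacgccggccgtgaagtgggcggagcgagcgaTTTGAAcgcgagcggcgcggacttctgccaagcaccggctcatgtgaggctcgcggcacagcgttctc
HMMR: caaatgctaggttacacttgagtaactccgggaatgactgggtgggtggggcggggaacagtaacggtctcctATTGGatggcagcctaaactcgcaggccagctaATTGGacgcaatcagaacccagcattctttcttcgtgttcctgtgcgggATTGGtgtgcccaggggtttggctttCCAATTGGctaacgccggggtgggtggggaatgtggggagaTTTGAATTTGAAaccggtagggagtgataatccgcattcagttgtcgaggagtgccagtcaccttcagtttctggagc
ECT2: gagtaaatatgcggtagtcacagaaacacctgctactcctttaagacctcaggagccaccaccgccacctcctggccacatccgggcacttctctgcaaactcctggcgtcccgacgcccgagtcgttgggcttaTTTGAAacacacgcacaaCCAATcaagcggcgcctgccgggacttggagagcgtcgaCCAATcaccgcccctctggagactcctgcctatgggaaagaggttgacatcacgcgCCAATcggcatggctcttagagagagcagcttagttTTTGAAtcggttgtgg
CCNA2 held 1 CCAAT match and NEK2 held 2, with no TTTGAA in either window. CENPA held 1 TTTGAA and 2 CCAAT matches, HMMR 2 and 5 (a CCAAT pair overlaps on opposite strands), and ECT2 2 and 3.

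Among the mitotic cyclins, CDK1 and their activators, 5 of 7 genes rose with miR-376a*G and 2 of 7 with miR-376a*A, and 0 fell. Over all features 11.8% rose and 13.1% fell with miR-376a*G, and 10.8% and 10.0% with miR-376a*A. CCNA2, the cyclin that serves both DNA replication and entry into mitosis, changed most. Its signal was 1124.0, 1053.0 and 1116.8 with miR-376a*G, 1021.2, 969.4 and 933.0 with miR-376a*A, and 452.3, 408.0 and 431.9 in the control. Every array of either form lay above every control array. The log2 difference was 1.32 ± 0.064 (SE) for miR-376a*G (limma adjusted p = 4.03e-08) and 1.15 ± 0.064 for miR-376a*A (adjusted p = 1.07e-07). Between the forms it was 0.17 ± 0.064 and did not pass (adjusted p = 0.0879), although the arrays did not overlap. A second probe set of CCNA2 moved further, at 1.95 and 1.55 against the control, and passed between the forms, at 0.40.

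CCNB2, a B-type cyclin that partners CDK1, stood in order of the groups. Its signal was 1154.0, 1174.4 and 1114.8 with miR-376a*G, 867.3, 934.1 and 938.1 with miR-376a*A, and 703.7, 766.5 and 790.5 in the control. No 2 groups overlapped, with miR-376a*G highest and the control lowest. It rose 1.51-fold with miR-376a*G (0.60 ± 0.064, SE, adjusted p = 2.42e-05), rose 1.21-fold with miR-376a*A (adjusted p = 0.00915) and was 1.25-fold higher with miR-376a*G than with miR-376a*A (adjusted p = 0.00331). With the mean of its tested probe sets, 1 of which is dim, the difference between the forms was 0.08 and did not pass (adjusted p = 0.42). CCNB1, the main mitotic cyclin, averaged 1583.7 ± 20.2 with miR-376a*G, 1339.5 ± 43.2 with miR-376a*A and 1185.5 ± 77.5 in the control (SD, n = 3 each). It passed with miR-376a*G (0.41) and between the forms (0.24), and stood at 0.18 with miR-376a*A, which did not pass (adjusted p = 0.0593). Its call between the forms was lost without replicate 2 or 3 of miR-376a*A or replicate 1 or 2 of miR-376a*G.

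CDK1 itself, the kinase that starts mitosis, separated the G form from the other groups. Its signal was 1468.6, 1465.8 and 1402.0 with miR-376a*G, 1090.7, 1103.2 and 1087.2 with miR-376a*A, and 974.9, 1103.1 and 1061.9 in the control. The miR-376a*G arrays lay above all others, while those of miR-376a*A and the control overlapped. It rose 1.38-fold with miR-376a*G (adjusted p = 0.000125) and was 1.32-fold higher than with miR-376a*A (adjusted p = 0.000517), and its difference with miR-376a*A was 0.06 ± 0.060 (SE). All 3 other tested probe sets of CDK1 passed as higher with miR-376a*G in both comparisons, and none passed with miR-376a*A. CDC25C, a phosphatase that removes the inhibitory phosphates of CDK1, did likewise, at 188.6 ± 13.6 with miR-376a*G, 141.0 ± 1.4 with miR-376a*A and 135.0 ± 9.3 in the control (SD, n = 3 each). The transcription factor gene FOXM1, which activates many of these genes in G2, averaged 631.1 ± 20.2, 627.0 ± 38.0 and 634.7 ± 60.8 in the same order of groups and passed in no comparison, and neither did the phosphatase gene CDC25B.

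**Figure D3:**
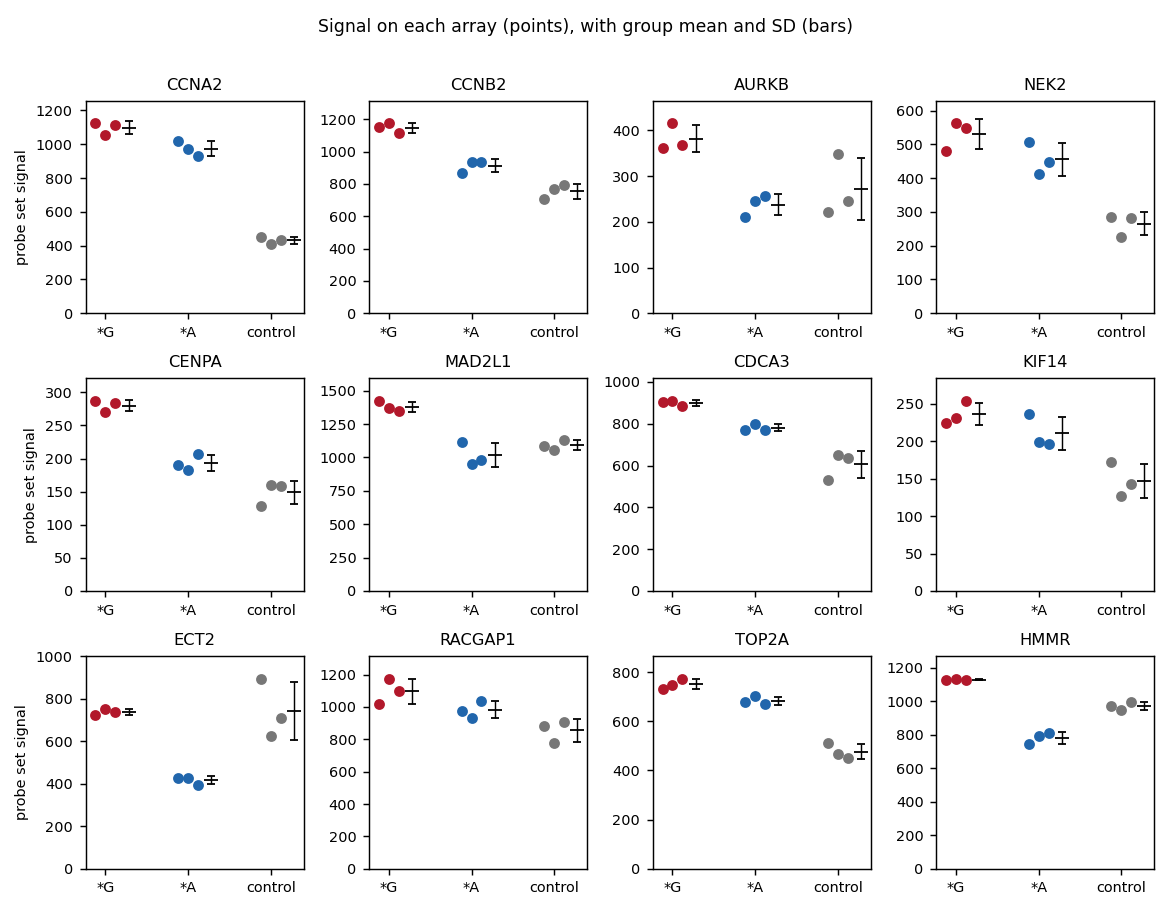
Probe set signal on each array (points) with the group mean and SD (bars, n = 3) for 12 of the 46 genes, each panel from 0 on its own linear axis, with miR-376a*G in red, miR-376a*A in blue and the control in grey. CCNA2, NEK2, TOP2A and KIF14 lie above the control with both forms, AURKB and MAD2L1 do so with miR-376a*G and overlap it with miR-376a*A, HMMR lies on opposite sides of the control with the 2 forms, and ECT2 is low with miR-376a*A.

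Mitotic kinases and the chromosomal passenger complex, which holds Aurora B at centromeres and the midzone, gave 9 genes. Of these 5 rose and 0 fell with miR-376a*G (over all features, 11.8% rose and 13.1% fell), and 1 rose and 3 fell with miR-376a*A (10.8% and 10.0%), so the share that rose with miR-376a*A, 11.1%, lay near the background. NEK2, a centrosome kinase, had signals of 481.2, 562.3 and 549.9 with miR-376a*G, 507.4, 411.6 and 447.9 with miR-376a*A, and 285.8, 226.1 and 283.1 in the control. Both forms lay above the control on every array, and they overlapped with each other. The rise was 1.95-fold with miR-376a*G (0.96 ± 0.103, SE, adjusted p = 2.41e-05) and 1.68-fold with miR-376a*A (adjusted p = 0.000244), and the second probe set of NEK2 passed with both as well. That second probe set also passed between the forms (0.28), which the brightest did not (0.22).

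AURKB, the Aurora B kinase, had signals of 362.3, 415.4 and 368.4 with miR-376a*G, 211.3, 245.7 and 256.5 with miR-376a*A, and 221.3, 349.3 and 245.7 in the control. The miR-376a*G arrays lay above all others, but control replicate 2 came close to them. AURKB was 1.57-fold higher with miR-376a*G than with miR-376a*A (0.65 ± 0.135, SE, adjusted p = 0.00465). Its rise against the control (0.49 ± 0.135, adjusted p = 0.0184) did not pass without miR-376a*G replicate 2, control replicate 1 or control replicate 3, or with no filter, with adjusted p of at most 0.0795. The other tested probe set of AURKB, with a mean signal of 44.2, rose with miR-376a*G (0.40) and did not pass between the forms (0.30). CDCA8, which encodes the passenger subunit borealin, rose 1.37-fold with miR-376a*G, and BIRC5, the survivin gene, 1.20-fold. Neither passed with miR-376a*A on its brightest probe set (0.04 and 0.14). A dimmer probe set of BIRC5 rose with both forms (0.45 and 0.29). Its remaining probe sets did not pass against the control with either form (0.13 and -0.02 with miR-376a*G).

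INCENP, the scaffold of that complex, PLK1 and the checkpoint kinase gene TTK were lower with miR-376a*A. The INCENP signal was 122.6, 113.6 and 114.0 with miR-376a*G, 83.0, 91.9 and 92.9 with miR-376a*A, and 129.7, 105.7 and 119.8 in the control, and the miR-376a*A arrays lay below all others. PLK1 fell by 0.28 (log2, adjusted p = 0.0121), INCENP by 0.35 (adjusted p = 0.012) and TTK by 0.32 (adjusted p = 0.0318). With miR-376a*G these genes stood at -0.03, -0.01 and 0.14 and did not pass, and all 3 were higher with miR-376a*G than with miR-376a*A. The fall of INCENP did not pass without miR-376a*A replicate 1, and that of TTK was kept in 9 of 18 alternatives, not passing when any array of miR-376a*A was left out. The PLK1 difference between the forms was kept in 13 of 18 and that of INCENP in 16, each lost when single miR-376a* arrays were left out. AURKA rose by 0.16 with miR-376a*G (log2, adjusted p = 0.0427, kept in 5 of 18 settings and lost without each of the miR-376a*G arrays). A second probe set of AURKA, with a mean signal of 1225.4, passed with miR-376a*G (0.33) and between the forms (0.20). A dimmer one passed in no comparison. TPX2, the activator of Aurora A, had differences of -0.12 and -0.14 that did not pass, although its miR-376a*G and miR-376a*A arrays all lay below those of the control.

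Kinetochore genes rose with miR-376a*G in 5 of 6 genes, and with miR-376a*A 2 of 6 rose and 0 fell. Between the forms 4 of 6 were higher with miR-376a*G. Over all features 11.8%, 10.8% and 7.9% were higher in these comparisons, and 10.0% were lower with miR-376a*A. CENPA, the histone variant that marks centromeres, had signals of 286.7, 269.9 and 283.3 with miR-376a*G, 189.6, 183.4 and 207.3 with miR-376a*A, and 128.8, 159.8 and 157.9 in the control. The 3 groups did not overlap. CENPA rose 1.80-fold with miR-376a*G (0.85 ± 0.087, SE, adjusted p = 1.77e-05) and was 1.41-fold higher with it than with miR-376a*A (adjusted p = 0.00145). Its 1.27-fold rise with miR-376a*A (adjusted p = 0.0128) did not pass without miR-376a*A replicate 3 (adjusted p = 0.065). CENPA had 1 probe set.

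NDC80, NUF2 and SPC25 encode subunits of the NDC80 complex, which binds microtubules at the kinetochore. NDC80 had signals of 571.1, 630.2 and 633.6 with miR-376a*G, 444.6, 444.2 and 430.5 with miR-376a*A, and 439.0, 421.8 and 424.7 in the control. The miR-376a*G arrays stood apart and the other groups overlapped, with a 1.41-fold rise (adjusted p = 0.000112) and a difference of 0.46 ± 0.064 (SE) between the forms. NUF2, the second gene that rose with miR-376a*A (0.25, kept in 7 of 18 settings and lost without each of the miR-376a*A arrays), and SPC25 rose 1.32-fold and 1.31-fold with miR-376a*G, and their differences between the forms (0.15 and 0.20) did not pass. The SPC25 rise was lost without miR-376a*G replicate 2. The kinetochore motor gene CENPE averaged 563.1 ± 14.8 with miR-376a*G, 398.2 ± 7.4 with miR-376a*A and 468.6 ± 66.2 in the control (SD, n = 3 each). CENPE differed between the forms by 0.48 (adjusted p = 0.00168), while its rise against the control (adjusted p = 0.0388) was kept in 5 of 18 settings, and in none that left out a miR-376a*G array. CENPF, a large kinetochore protein, passed between the forms alone on its brightest probe set, at 0.31. A dimmer probe set of CENPF fell with miR-376a*A (-0.42) and also passed between the forms (0.42). Another, with a mean signal of 14.0, rose against the control with both forms (0.44 and 0.36).

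Of the 3 spindle checkpoint genes, MAD2L1 was the one that rose with miR-376a*G, and 0 fell (over all features, 11.8% rose and 13.1% fell). With miR-376a*A 0 rose and 1 fell (10.8% and 10.0%). MAD2L1, whose product restrains CDC20 at unattached kinetochores, had signals of 1421.9, 1371.0 and 1347.0 with miR-376a*G, 1118.8, 952.9 and 980.3 with miR-376a*A, and 1086.7, 1059.0 and 1131.0 in the control. The miR-376a*G arrays lay above the other 6, which overlapped. It rose 1.26-fold (adjusted p = 0.00317) and was 1.35-fold higher than with miR-376a*A (adjusted p = 0.000619). A second probe set of MAD2L1 passed in the same comparisons (0.25 and 0.37). A dimmer one did not pass with miR-376a*G (0.21), fell with miR-376a*A (-0.34) and passed between the forms (0.55). BUB1B, the gene of the checkpoint protein BUBR1, fell by 0.32 (log2) with miR-376a*A (adjusted p = 0.0371), a call kept in 9 of 18 settings and lost when any miR-376a*G or miR-376a*A array was left out, and stood at -0.05 with miR-376a*G. BUB1 passed in no comparison, although 1 of its dimmer probe sets passed as lower against the control with both forms (-0.42 and -0.37).

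Genes of anaphase and of APC/C activity rose in 4 of 5 cases with miR-376a*G, in 2 with miR-376a*A, and 0 fell. The shares over all features were 11.8% higher and 13.1% lower with miR-376a*G, and 10.8% and 10.0% with miR-376a*A. CDCA3, a trigger of mitotic entry that acts with a ubiquitin ligase, had signals of 903.6, 908.2 and 882.9 with miR-376a*G, 771.6, 799.9 and 769.7 with miR-376a*A, and 532.6, 648.1 and 638.3 in the control. The groups did not overlap. CDCA3 rose 1.47-fold with miR-376a*G (adjusted p = 0.000148) and 1.28-fold with miR-376a*A (adjusted p = 0.00434), and 0.20 ± 0.074 (SE) between the forms did not pass. A second probe set of CDCA3 rose with both forms (0.91 and 0.43) and passed between them (0.48). ESPL1, the separase that cuts cohesin, rose 1.37-fold and 1.24-fold. The APC/C activator gene CDC20 rose 1.37-fold with miR-376a*G and averaged 841.9 ± 17.2 there, 690.8 ± 8.8 with miR-376a*A and 612.6 ± 58.5 in the control (SD, n = 3 each). Its difference between the forms (0.28) was lost without replicate 1 of miR-376a*G or replicate 1 or 3 of miR-376a*A. UBE2C, the ubiquitin-conjugating enzyme of the APC/C, rose 1.24-fold with miR-376a*G (adjusted p = 0.041, kept in 7 of 18 settings and in none that left out a miR-376a*G array), and its control arrays lay between 1247.7 and 1813.5. The securin gene PTTG1 passed in no comparison.

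Among 11 kinesin and spindle genes 6 rose and 0 fell with miR-376a*G, and 2 rose and 3 fell with miR-376a*A. Over all features 11.8% rose and 13.1% fell with miR-376a*G, and 10.8% and 10.0% with miR-376a*A. With miR-376a*A the shares here, 18.2% and 27.3%, rest on few genes. Among genes of like brightness they were 13.5% and 16.5%. KIF14, a kinesin of the midbody, had signals of 224.7, 231.0 and 253.4 with miR-376a*G, 235.6, 199.2 and 196.0 with miR-376a*A, and 171.6, 126.7 and 142.2 in the control. Both forms lay above the control and overlapped each other, with rises of 1.56-fold (adjusted p = 0.000732) and 1.39-fold (adjusted p = 0.00616). A second probe set of KIF14 rose with both forms (0.734 and 0.499) and passed between them (0.235). KIF20A, another kinesin of the central spindle, rose 1.45-fold and 1.39-fold. KIF2C, which depolymerises microtubules at kinetochores, passed with miR-376a*G (0.38) and between the forms (0.45 ± 0.062, SE), and not with miR-376a*A (-0.06).

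HMMR, a microtubule-binding protein of the spindle poles, moved in opposite directions against the control. Its signal was 1125.8, 1132.9 and 1127.4 with miR-376a*G, 742.2, 793.5 and 809.0 with miR-376a*A, and 971.1, 947.5 and 997.6 in the control. The groups did not overlap, and the control lay between the forms. HMMR rose 1.16-fold with miR-376a*G (adjusted p = 0.0164) and fell 1.24-fold with miR-376a*A (adjusted p = 0.00218), and the difference between the forms was 0.52 ± 0.057 (SE, adjusted p = 3.86e-05). Its rise did not pass without miR-376a*G replicate 2 or 3 (adjusted p of at most 0.0647). A second probe set gave 0.24, -0.42 and 0.65 in these comparisons and passed in all 3.

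KIF11, the motor that separates spindle poles, averaged 578.9 ± 25.2 with miR-376a*G, 394.7 ± 37.0 with miR-376a*A and 528.8 ± 97.8 in the control (SD, n = 3 each). It was 1.45-fold higher with miR-376a*G than with miR-376a*A (adjusted p = 0.00451), and its fall of 0.40 (log2) against the control (adjusted p = 0.0232) did not pass without miR-376a*A replicate 1 or 3. The chromosome-arm kinesin gene KIF4A also fell with miR-376a*A (-0.26, adjusted p = 0.0249). The call for KIF4A was lost when any miR-376a*A array was left out. KIF23, a midzone kinesin, passed between the forms alone on its brightest probe set (0.42). This call was lost without miR-376a*G replicate 2 or miR-376a*A replicate 1. A dimmer probe set of KIF23 rose against the control with both forms (0.58 and 0.42) and did not pass between them (0.16). The spindle genes NUSAP1 and ASPM rose with miR-376a*G by 0.20 and 0.33 (log2), neither of which passed when replicate 2 or 3 of miR-376a*G, or replicate 3 of the control, was left out. NUSAP1 was also higher than with miR-376a*A (0.27). A second probe set of NUSAP1 rose against the control with both forms (0.432 and 0.235) and did not pass between them (0.197). The central-spindle gene PRC1 and the spindle gene DLGAP5 passed in no comparison.

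ECT2 showed the largest fall of the set. ECT2 encodes the exchange factor that activates RHOA to form the contractile ring. Its signal was 722.2, 753.2 and 736.3 with miR-376a*G, 428.7, 426.9 and 396.0 with miR-376a*A, and 893.5, 625.2 and 710.6 in the control. The miR-376a*A arrays lay far below the rest, the other groups overlapped, and control replicate 1 was high. ECT2 fell 1.74-fold with miR-376a*A (-0.80 ± 0.102, SE, adjusted p = 0.000148) and was 1.74-fold higher with miR-376a*G than with miR-376a*A (adjusted p = 0.000139), while its mean with miR-376a*G (737.2 ± 15.5) was close to that of the control (743.1 ± 137.0, SD, n = 3 each). A second probe set gave -0.77 and 1.07 in these 2 comparisons and passed in both. RACGAP1, the partner of ECT2 at the midzone, had signals of 1017.2, 1173.4 and 1098.4 with miR-376a*G, 977.8, 932.4 and 1039.5 with miR-376a*A, and 880.3, 776.3 and 906.5 in the control. All miR-376a*G and miR-376a*A arrays lay above the control. RACGAP1 rose 1.28-fold with miR-376a*G (adjusted p = 0.00473) and stood at 0.20 ± 0.077 (SE) with miR-376a*A, which did not pass. ANLN, the anillin of the contractile ring, passed between the forms alone (0.34, adjusted p = 0.0238), in 11 of 18 settings, and in no setting that left out a miR-376a*A array.

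TOP2A, the topoisomerase that untangles sister chromosomes, had signals of 731.4, 746.9 and 772.5 with miR-376a*G, 677.8, 702.3 and 669.6 with miR-376a*A, and 510.5, 465.3 and 452.1 in the control. Its groups did not overlap, and both forms were well above the control. TOP2A rose 1.56-fold with miR-376a*G (adjusted p = 1.51e-05) and 1.42-fold with miR-376a*A (adjusted p = 0.000123). MKI67, the gene of the proliferation antigen Ki-67, rose 1.31-fold and 1.21-fold. Of its 3 other tested probe sets 1 passed with miR-376a*G and 0 with miR-376a*A, and the miR-376a*A call was kept in 13 of 18 settings, and was lost when any miR-376a*A array was left out.

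Other probe sets gave a second reading for some of the calls. Of the 46 genes 24 had another tested probe set. Among the 29 genes that rose with miR-376a*G, 19 had one, all others shared the sign in 16, and another passed as higher in 18. For miR-376a*A the counts were 10, 9 and 8 among 19 called genes, and between the forms 13, 12 and 7 among 22. No other probe set of a called gene passed in the opposite direction in these comparisons. Over the 18 alternative settings, 21 of the 29, 11 of the 19 and 15 of the 22 calls were kept in every one.

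Further mitosis genes outside the 46, taken from a list of 62, were tested in 61 cases. This list too was chosen with earlier results of these data known, so its counts are not independent support. With miR-376a*G 28 rose (45.9%) and 2 fell (3.28%), against 11.8% and 13.1% of all features. With miR-376a*A 12 rose (19.7%) and 11 fell (18.0%), against 10.8% and 10.0%. Among single-symbol genes at least as bright as the dimmest of the 46, 13.5% rose and 16.5% fell with miR-376a*A. The share of further mitosis genes that fell lay near that background. Between the forms 25 were higher (41.0%) and 1 lower (1.64%) with miR-376a*G, against 7.9% and 10.4%. The medians were 0.20, -0.03 and 0.22, and the difference from the 46 genes was not tested. Without miR-376a*G replicate 2, 17 of these rose with miR-376a*G and 15 were higher than with miR-376a*A, and the second of these counts ranged from 15 (also without miR-376a*A replicate 1) and 16 (without replicate 3 of either form) to 38 (without control replicate 1). The 11 falls were 7 without miR-376a*A replicate 3 and 17 without control replicate 2. On the brightest probe set of each gene, changes larger than any in the 46 were found with miR-376a*A. MELK, a kinase that peaks in mitosis, averaged 830.4 ± 9.4 with miR-376a*G, 294.9 ± 30.5 with miR-376a*A and 922.9 ± 45.1 in the control (SD, n = 3 each), a 3.03-fold fall (adjusted p = 2.71e-08). CENPU, a kinetochore protein that recruits PLK1, averaged 882.9 ± 39.6, 276.2 ± 22.9 and 820.6 ± 61.9 in the same order, a 2.86-fold fall (adjusted p = 5e-08). The mitotic kinase gene PBK rose 1.52-fold with miR-376a*G (adjusted p = 1.03e-05). GAS2L3, which links actin and microtubules at the midzone, fell 1.91-fold with it (adjusted p = 6.22e-06). Both MELK and CENPU were higher with miR-376a*G than with miR-376a*A, by 1.45 and 1.62 (log2). The 2 other probe sets of CENPU fell less with miR-376a*A (-0.61 and -0.83), as did that of GAS2L3 with miR-376a*G (-0.54), and all 3 passed.

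The shares of all features just given are the background for the smaller lists that follow, where a few genes make up each count. Brakes on CDK1 were tested in 9 of 12 listed genes, of which 2 rose and 2 fell with each form, and 1 was higher and 3 were lower with miR-376a*G than with miR-376a*A (1 lower without replicate 1 or 2 of either form). WEE1, the kinase that inhibits CDK1 by phosphorylation, averaged 249.6 ± 18.5 with miR-376a*G, 330.9 ± 29.9 with miR-376a*A and 448.4 ± 58.1 in the control (SD, n = 3 each). It fell 1.74-fold with miR-376a*G (adjusted p = 7.83e-05) and 1.33-fold with miR-376a*A (adjusted p = 0.00938), and a second probe set fell with both. CDKN1A, the p21 inhibitor gene, was 1.31-fold lower with miR-376a*G than with miR-376a*A (adjusted p = 0.000748). Against the control CDKN1A stood at -0.40 (log2) with miR-376a*G, which passed, and at -0.01 with miR-376a*A, which did not. The stress gene GADD45B rose by 0.59 and 0.53 (log2) with the G and A forms. SFN, a 14-3-3 protein that holds CDK1 in the cytoplasm, fell 1.38-fold with miR-376a*A (adjusted p = 0.00192), and another probe set gave -0.08 and did not pass.

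Genes of the APC/C and of cohesin, which also act outside mitosis, were listed apart. Of 14 tested APC/C genes 2 rose and 3 fell with miR-376a*G and 1 rose and 1 fell with miR-376a*A, and 0 were higher and 1 lower between the forms. The shares with miR-376a*G, 14.3% higher and 21.4% lower, and with miR-376a*A, 7.14% each way, lay near the background (11.8% and 13.1%, and 10.8% and 10.0%, of all features). The largest of these changes was in CDC26, a small APC/C subunit, which averaged 153.3 ± 10.4 with miR-376a*G, 610.3 ± 30.3 with miR-376a*A and 498.8 ± 98.8 in the control (SD, n = 3 each), a 3.00-fold fall with miR-376a*G (adjusted p = 1.31e-06). ANAPC13 rose 1.48-fold and 1.39-fold with the G and A forms. CDC23 fell with both on its brightest probe set (-0.34 and -0.41), while another probe set rose with both (1.14 and 0.86), so CDC23 has no settled direction. Of 12 cohesin genes 2 rose and 4 fell with miR-376a*G and 1 rose and 2 fell with miR-376a*A, and 0 were higher and 2 lower between the forms (with miR-376a*G, 16.7% and 33.3%). SMC3 was 1.62-fold and 1.58-fold higher and the cohesin-release gene WAPL was 1.35-fold and 1.33-fold lower with the G and A forms. Of the other probe sets of SMC3 1 also rose with both forms, and the brighter of the rest gave 0.08 and 0.03. The other probe sets of WAPL fell with miR-376a*G and did not pass with miR-376a*A. STAG2 and PDS5A were lower with miR-376a*G than with miR-376a*A (-0.27 and -0.31), the first in 7 of 18 settings, and the other probe sets of PDS5A did not share a sign.

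The DREAM and MuvB complex represses or activates these promoters by cell-cycle phase. Of its 12 tested genes 2 rose and 3 fell with miR-376a*G, 2 rose and 0 fell with miR-376a*A, and 2 were higher and 0 lower between the forms. These are few genes, and the background with miR-376a*G was 11.8% higher and 13.1% lower over all features, or 18.4% and 19.4% among genes of like brightness. With miR-376a*A the background was 10.8% and 10.0% over all features, or 13.5% and 16.5% at like brightness. Between the forms it was 7.9% and 10.4%, or 13.5% and 12.7%. The 2 genes higher in each of these comparisons (16.7%) lay near the share at like brightness. LIN9, a MuvB core subunit, averaged 111.9 ± 11.1 with miR-376a*G, 76.6 ± 15.4 with miR-376a*A and 44.7 ± 8.8 in the control (SD, n = 3 each), a 2.11-fold (adjusted p = 8.74e-05) and a 1.52-fold rise (adjusted p = 0.00691). TFDP2, a partner of E2F factors, rose 1.53-fold with miR-376a*G, while its other probe sets did not share a sign.

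Genes of G1/S and DNA replication were tested in 29 cases. With miR-376a*G 7 rose (24.1%) and 1 fell (3.45%), against 11.8% and 13.1% of all features. With miR-376a*A 6 rose (20.7%) and 7 fell (24.1%), against 10.8% and 10.0%. Between the forms 9 were higher (31.0%) and 2 lower (6.9%) with miR-376a*G, against 7.9% and 10.4%. The count of 9 was 4 or 5 without any one of the 6 miR-376a* arrays. GMNN, the replication licensing inhibitor geminin, and the kinase gene CDK6 rose 2.73-fold and 2.83-fold with miR-376a*G and 2.37-fold and 2.33-fold with miR-376a*A. The size for CDK6 depends on the probe set, with 0.13 to 1.06 (log2, miR-376a*G) and 0.19 to 0.86 (miR-376a*A) on its 5 other tested probe sets, each smaller than on the brightest. The mean of its probe sets gave 0.70 and 0.65 and passed with both forms. CCNE2, a cyclin of G1/S, averaged 234.9 ± 3.2 with miR-376a*G, 124.9 ± 9.8 with miR-376a*A and 208.2 ± 12.7 in the control (SD, n = 3 each), a 1.59-fold fall with miR-376a*A (adjusted p = 5.52e-05). CDK4 was 1.32-fold higher with miR-376a*G than with miR-376a*A (adjusted p = 0.000471). Against the control CDK4 stood at -0.28 (log2) with miR-376a*A, which passed, and at 0.11 with miR-376a*G, which did not.

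**Figure D4:**
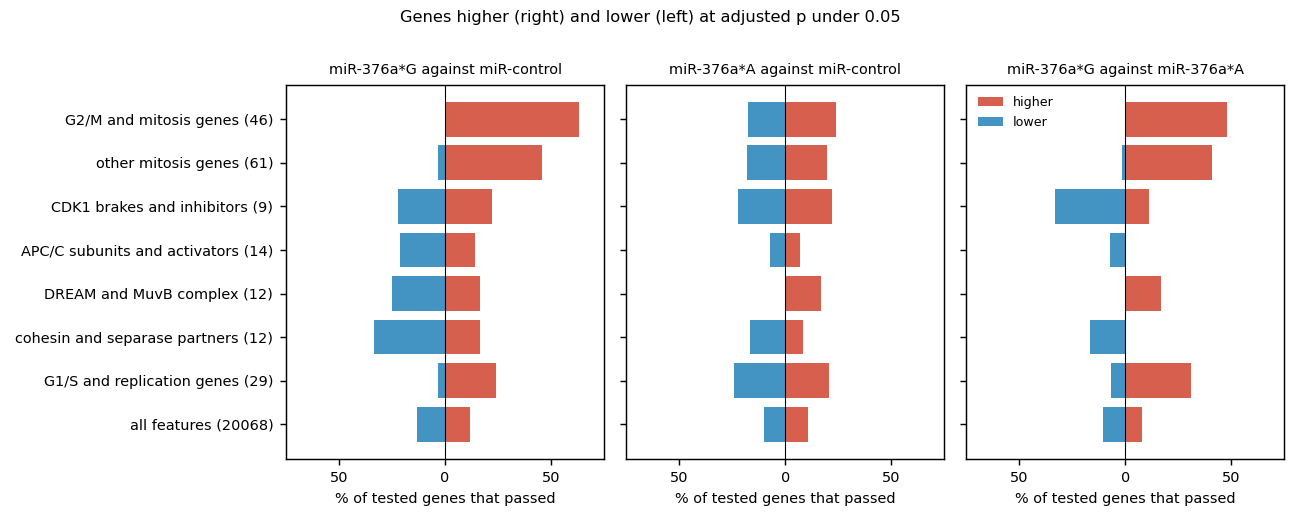
Percent of tested genes that passed as higher (red, right) and lower (blue, left) in each comparison, with the number tested in parentheses. Against a background of 11.8%, 10.8% and 7.9% higher over all features, the 46 G2/M and mitosis genes reach 63.0%, 23.9% and 47.8%.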

How the data were processed

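Expression was measured in 9 samples, each on 1 Affymetrix array. Per the labels' protocols, total RNA was extracted with Trizol, purified on a column and labelled with biotin-ULS. The authors deposited a signal intensity per probe set on a linear scale. Per the submitters' processing notes the software was GCOS 1.4.0.036. How the signal was summarised and to which target it was scaled is not stated in the sources used. The 2% trimmed mean of every array lay between 100.009 and 100.011, so the values are relative to each array's total and hide any change common to all transcripts.

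Of 54675 probe sets, 62 controls were left out. Signals were taken as log2(signal + 16), and probe sets below the 40th percentile of the mean (signal 11.3) were dropped, which left 32768. Each single-symbol gene was represented by its brightest probe set, and probe sets with several symbols or none were tested singly. Python 3.11.15 was used with limma 3.58.1 in R 4.3.3 (lmFit, eBayes with an intensity trend, all 9 arrays, 6 residual degrees of freedom), checked on simulated data. Tests were two-sided. Per role group, values are given for the gene with the largest difference for miR-376a*G against control, and for genes that passed at 1.5-fold in any comparison. From each other list the 2 genes of smallest p per comparison are named. HMMR, CDK1, NDC80 and others given in full were chosen after their values were seen, and the members and lists were chosen with earlier results of these data known. The labels call the replicates biological. Same-numbered arrays deviated together with correlations of -0.11 to 0.071, so the replicate block was kept as an alternative only. The labels do not say whether same-numbered arrays were handled together, and 3 arrays per group cannot settle it. Alternatives covered scaling, filter, offset, variance model, arrays in the fit, probe sets, a replicate block and single arrays left out.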

Additional observations from a re-analysis of the deposited data

How the results depend on the processing

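Under the 18 alternatives the count of genes higher with miR-376a*G against control ranged from 21 (without miR-376a*G replicate 2) to 34 (without control replicate 1), with 0 lower in each. Higher counts ranged from 8 to 15 for miR-376a*A against control and from 17 to 32 for miR-376a*G against miR-376a*A, again with 0 lower in the last. The median for miR-376a*G against control was 0.284 with the mean of the probe sets and 0.292 after quantile normalization. Centring each array on its median gave a median of -0.002 for miR-376a*A against control and of 0.286 between the forms. With miR-376a*A, 5 genes fell with no filter, 4 with only the 2 groups compared, and 3 to 10 with single arrays left out, while the median ranged from 0.001 to 0.060. The median between the forms ranged from 0.218 to 0.259 with single arrays left out. With the replicate block 27 genes rose with miR-376a*G, 10 rose and 7 fell with miR-376a*A, and 22 were higher with miR-376a*G than with miR-376a*A. Whether same-numbered arrays were paired is not known, and why calls were lost there was not tested. With the mean of the probe sets CDC23 turned to 0.397 and 0.224 (miR-376a*G and miR-376a*A against control) and TFDP2 to -0.095 (miR-376a*A against control). With only the 2 groups compared, 40 further mitosis genes were higher with miR-376a*G than with miR-376a*A. The same setting gave 14 G1/S genes. In the APC/C, cohesin, DREAM and CDK1 brake lists single arrays moved counts by at most 3 genes, and 2 in place of 4 cohesin genes fell with miR-376a*G in 11 of the 18 alternatives. Each group holds 3 arrays, which limits precision. The cause of these shifts was not tested. Alternatives for the other lists were chosen after seeing the data.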
